A study of Homo sapiens with 30 samples.

Results

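The 7 genes described here are the 3 sestrins (SESN1, SESN2 and SESN3) and 4 other genes whose products hold back the growth kinase mTOR: DDIT4, PRKAB1, PRKAB2 and TSC2. They were chosen by name, with earlier results of these data known, as the rows of the deposited count table that carry their Ensembl identifiers. They are 7 of 39359 genes in that table. All 7 had enough reads to be tested, among 20875 genes tested.

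RNA was sequenced from H1299 cells, a human lung carcinoma line that lacks p53, in 30 libraries of 10 groups with 3 biological replicates each. Every culture was transfected with a plasmid that expresses GFP, sorted on the GFP signal and collected 6 h or 24 h after transfection, so that control and p53 cells share the transfection, the sort and the absence of endogenous p53. The pGFP control carried no p53 gene, and the other vectors carried p53 as well, each gene under a tetracycline response element-tight promoter: wild type p53, the RW mutant p53 (R248W, a DNA contact mutant), or wild type p53 with one O6-methylguanine in the template strand at codon 248 (p53 O6-meG). In the last group, called p53 TM for transcriptional mutagenesis, the p53 O6-meG vector was given to cells that had received 10 µM O6-benzylguanine (O6-bzG), an inhibitor of the enzyme that repairs the lesion. No group received O6-bzG with another vector, so an action of the compound on a gene cannot be told apart from an action of the mutagenized transcripts. In these bulk samples, fewer cells that express a gene cannot be told apart from less RNA per cell.

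mTOR complex 1 drives protein synthesis and growth when amino acids, energy and growth factors are sufficient. Sestrins restrain it from the amino acid side, where SESN1 and SESN2 bind GATOR2, an upstream activator of the complex, and SESN2 is a leucine sensor; SESN1 and SESN2 are known p53 target genes, while SESN3 is known for its control by FOXO transcription factors. DDIT4 (REDD1) and AMPK, of which PRKAB1 and PRKAB2 are the alternative beta subunits, act through the TSC complex, and TSC2 is the subunit of that complex that switches off the GTPase RHEB, the direct activator of mTOR complex 1.

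The position of each gene is given on hg38 from GENCODE v44. SESN1 lies at chr6:108984309-109094846 on the minus strand, SESN2 at chr1:28259518-28282491 on the plus strand and SESN3 at chr11:95165513-95232541 on the minus strand. DDIT4 lies at chr10:72273919-72276036 on the plus strand, PRKAB1 at chr12:119667864-119681624 on the plus strand, PRKAB2 at chr1:147155106-147172550 on the minus strand and TSC2 at chr16:2047967-2089491 on the plus strand. Exons of 4 members overlap exons of a gene on the opposite strand: SESN1 by 363 bases, SESN3 by 98 bases and PRKAB1 by 103 bases, each with a long noncoding RNA, and TSC2 by 784 bases with PKD1. The strand setting of the authors' counting is not given in the sources used here.

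Because the members were followed under different forms of p53, the sequences around their starts were searched for the p53 consensus, a half-site of 10 bases (3 purines, a CNNG core whose inner bases are A or T, and 3 pyrimidines) that reads the same on both strands. Among the 10 RefSeq promoters of the 7 genes (hg38, from 250 bases before to 50 bases after a start), only 1 of the 3 SESN1 promoters held a half-site, and the adjoining 10 bases kept the C and the G of the core. Half-sites were found in 6.63% of the 35116 promoters of the table, and such pairs in 0.76%. Within 10 kb of the starts, only DDIT4 had a full site of 20 bases with an intact core and at most 1 mismatch. It matched the consensus at every base, as did a site in 0.345% of all windows of that length, while 2.45% held one with at most 1 mismatch. Both sites are shown as the only match of each search, each near a member that rose with wild type p53. The 20 bases of the site are in capitals, with 20 bases on each side. The looser search for a half-site pair covered only the promoters, and neither search allowed a gap between half-sites.
SESN1 pair, chr6:109009018-109009037, minus strand, 39 bases before the start at 109008988, inside the SESN1 gene but in no exon: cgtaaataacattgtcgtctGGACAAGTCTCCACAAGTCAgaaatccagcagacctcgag
DDIT4 site, chr10:72270764-72270783, plus strand, 3150 bases before the start at 72273924, in no annotated gene: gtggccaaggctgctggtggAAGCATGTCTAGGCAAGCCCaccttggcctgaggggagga
The SESN1 pair departs from the full consensus at 3 of its 20 bases. These are matches of letters, and binding of p53 was not measured here.

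The libraries held between 32302699 and 71950532 counted reads, and the lowest count of any member in any library was 196, for SESN3. Levels are given as CPM, the reads of a gene set to one common library size, after scaling with the trimmed mean of M-values (TMM), and a gene was called changed at an adjusted P below 0.05 in the quasi-likelihood test of edgeR (Benjamini-Hochberg over all genes tested). The epithelial and mesenchymal genes KRT8, KRT18 and VIM were high in all libraries, the lowest being KRT8 at 111 CPM, and no marker of pneumocytes, leukocytes, endothelium or fibroblasts that is in the table exceeded 2 CPM.

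The titles of 2 libraries, replicate 2 of p53 O6-meG at 6 h and replicate 2 of p53 TM at 6 h, contradict themselves, one part naming p53 O6-meG and another p53 TM. They were placed by the genotype label. The column names of the count table repeat the first part of each title and go against that placement, naming p53 O6-meG with O6-bzG for the former library and p53 O6-meG alone for the latter. The values go against it as well: CDKN1A, the classical p53 target that encodes p21, was at 268 and 261 CPM in p53 O6-meG replicates 1 and 3 but at 50 CPM in the library labelled p53 O6-meG replicate 2, and at 65.7 and 57.7 CPM in p53 TM replicates 1 and 3 but at 249 CPM in the library labelled p53 TM replicate 2. Each 6 h result on these groups is therefore given as labelled and with both libraries left out. The groups share one estimate of spread, so both libraries also enter the errors of comparisons that do not use them: the SE of SESN1 in wild type p53 against pGFP at 6 h was 0.45 with them and 0.13 without.

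Wild type p53 raised 5 of the 7 members at 6 h and 6 at 24 h, and it lowered SESN3 at 24 h. Of all genes tested, 8.75% were called at 6 h and 34.9% at 24 h, in either direction. SESN1 rose most in fold, to 8.22 times its pGFP level, and no member was called with the RW mutant.

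SESN1 stood at 27.7, 25.5 and 26.4 CPM in the pGFP libraries at 6 h and at 224, 224 and 206 CPM with wild type p53. At 24 h it was at 31.4, 27.3 and 27.8 CPM in pGFP and at 188, 173 and 140 CPM with wild type p53. All wild type libraries were far above all pGFP libraries at both times. The log2 fold change was 3.04 ± 0.45 (SE, n = 3 per group, adjusted P = 2.6e-04 by edgeR) at 6 h and 2.53 ± 0.44 (adjusted P = 6e-05) at 24 h.

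SESN2, the leucine sensor, was at 31.3, 29.7 and 30.9 CPM in pGFP and at 102, 103 and 99.9 CPM with wild type p53 at 6 h. At 24 h the values were 38.8, 34.6 and 38 CPM against 126, 102 and 108 CPM. The groups were again apart at both times, with log2 fold changes of 1.73 ± 0.21 (adjusted P = 2.3e-05) and 1.60 ± 0.21 (adjusted P = 1.2e-06).

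SESN3 went the other way at 24 h. At 6 h its pGFP libraries, at 7.88, 6.74 and 11.6 CPM, overlapped the wild type libraries at 6.49, 7.27 and 7.82 CPM, and the log2 difference was -0.28 ± 0.27 (adjusted P = 0.71). By 24 h the pGFP libraries stood at 22.2, 19.4 and 15.2 CPM, while those with wild type p53 stood at 9.53, 8.92 and 7.93 CPM. Each wild type library was below each pGFP library, with a log2 fold change of -1.11 ± 0.27 (adjusted P = 0.0019). LNCRNA-IUR, whose exons overlap SESN3 on the other strand, did not pass the test in this comparison (-0.23 ± 0.47, adjusted P = 0.76).

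SESN3 also moved with time in the pGFP cells themselves. Between 6 h and 24 h SESN3 rose by 1.11 ± 0.27 on the log2 scale in pGFP (adjusted P = 0.0016), and it was the only member called in that comparison, in which 40.1% of all genes tested were called. With wild type p53 the means were 7.19 ± 0.67 CPM at 6 h and 8.79 ± 0.81 CPM at 24 h (SD, n = 3). With the RW mutant they were 9.63 ± 0.915 and 17.7 ± 4.46 CPM. The change over time within either of these groups was not tested. The change of the wild type effect from 6 h to 24 h was -0.83 ± 0.38 for SESN3 and missed the threshold (adjusted P = 0.25). No member passed that test of the change by edgeR or by DESeq2's Wald test, SESN3 and TSC2 being the 2 with an unadjusted P below 0.05 in edgeR, which called 4.9% of all genes. With both conflicting libraries left out, PRKAB1 passed it at 0.54 ± 0.14 (adjusted P = 0.023), its rise being larger at 24 h.

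DDIT4, a stress-induced activator of the TSC complex, was at 9.67, 8.49 and 9.72 CPM in pGFP and at 35.1, 33.3 and 33.1 CPM with wild type p53 at 6 h. At 24 h it was at 7.35, 12.1 and 16.4 CPM in pGFP and at 39.4, 39 and 42 CPM with wild type p53. The pGFP libraries were spread at the later time but stayed below every wild type library. The log2 fold changes were 1.86 ± 0.29 (adjusted P = 3.1e-04) and 1.75 ± 0.28 (adjusted P = 2.4e-05).

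The AMPK beta subunits rose to different extents. PRKAB1 was at 48.3, 47.4 and 46.4 CPM in pGFP and 106, 105 and 115 CPM with wild type p53 at 6 h, and at 46.6, 40.1 and 43.3 CPM against 168, 138 and 127 CPM at 24 h. The log2 fold changes were 1.20 ± 0.23 (adjusted P = 0.0012) and 1.74 ± 0.23 (adjusted P = 1.6e-06). For PRKAB2 the separation was complete but small, with 28.3 to 29.2 CPM in pGFP and 37.4 to 39.3 CPM with wild type p53 at 6 h, against 27.2 to 30.1 CPM and 36.7 to 38.8 CPM by 24 h. Its log2 fold changes were 0.41 ± 0.10 (adjusted P = 0.0088) and 0.40 ± 0.10 (adjusted P = 0.0028).

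TSC2 did not pass the test at 6 h, with 80.7, 82 and 77 CPM in pGFP, 77.5, 83.4 and 83.7 CPM with wild type p53 and a log2 difference of 0.03 ± 0.06. At 24 h it was at 75.6, 68.3 and 77.1 CPM in pGFP and at 86.5, 84.3 and 85.7 CPM with wild type p53, a log2 fold change of 0.22 ± 0.06 (adjusted P = 0.0044). This was the smallest called change among the members. It was no longer called without wild type replicate 1 at 24 h (0.17, adjusted P = 0.057). PKD1, whose exons overlap TSC2 on the other strand, rose as well in this comparison, by 0.44 ± 0.10 (adjusted P = 9.5e-04), and its part in the TSC2 count was not tested.

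**Figure D1:**
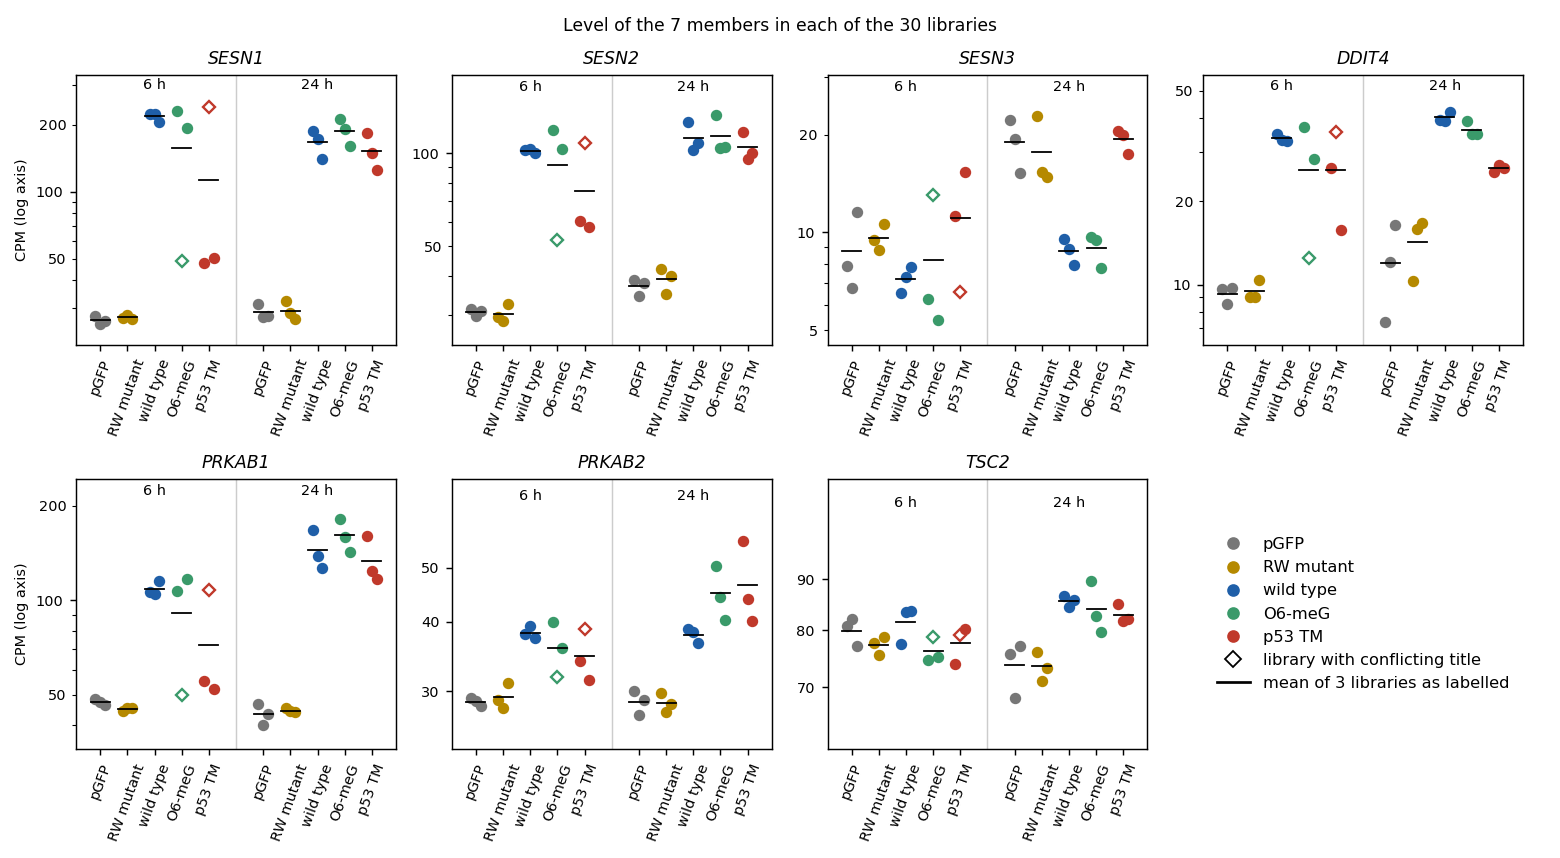
CPM of the 7 members on a log axis in each library, by group and time, with black bars for the mean of the 3 libraries as labelled and open diamonds for the libraries with conflicting titles. In SESN1, SESN2, DDIT4 and PRKAB1 the wild type libraries lie well above pGFP and the RW mutant at both times, SESN3 is low in wild type and O6-meG libraries at 24 h, and in SESN1, SESN2 and PRKAB1 each open diamond lies near the other group's libraries.

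The order of the members changed with p53 when levels were set per kilobase of merged exons. In pGFP at 24 h, SESN2 was highest at 10.7 ± 0.64 CPM per kb (SD, n = 3), followed by PRKAB1 at 7.18 ± 0.54, DDIT4 at 5.64 ± 2.13, PRKAB2 at 5.27 ± 0.27, SESN1 at 3.96 ± 0.31, TSC2 at 3.59 ± 0.23 and SESN3 at 1.79 ± 0.33 CPM per kb. DDIT4 was within its spread of PRKAB1, PRKAB2, SESN1 and TSC2, and SESN1 and TSC2 were not separated beyond their spread. With wild type p53 at 24 h, SESN2 was at 32.4 ± 3.6, PRKAB1 at 23.9 ± 3.55, SESN1 at 22.9 ± 3.41 and DDIT4 at 19 ± 0.77 CPM per kb. SESN1 thus moved above PRKAB2, which was at 6.95 ± 0.20 CPM per kb, and SESN3 remained lowest at 0.83 ± 0.08 CPM per kb. Among the members that rose, neither PRKAB1 and SESN1 nor SESN1 and DDIT4 differed beyond their spread. RNA length was taken over all annotated exons, which may exceed the transcripts in these cells. That length ran from 2118 bases for DDIT4 to 20527 bases for TSC2. The order of the members therefore depends on the annotation and may differ for the transcripts present.

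The RW mutant protein lacks an arginine that contacts DNA. None of the 7 members was called in RW against pGFP at 6 h or at 24 h by edgeR, none had an unadjusted P below 0.05, and DESeq2's Wald test also called none. In these comparisons 0.00479% of all genes were called at each time. The largest fitted difference among the members was 0.26 ± 0.28 for DDIT4 at 24 h, with an interval from -0.31 to 0.82 on the log2 scale. For SESN1 the interval was -0.82 to 0.90 at 6 h and -0.84 to 0.88 at 24 h, with measured RW values of 27.2, 27.9 and 26.9 CPM at 6 h and 32.2, 28.6 and 26.8 CPM at 24 h. SESN3 was at 22.8, 15.4 and 14.8 CPM with the RW mutant at 24 h, overlapping pGFP.

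**Figure D2:**
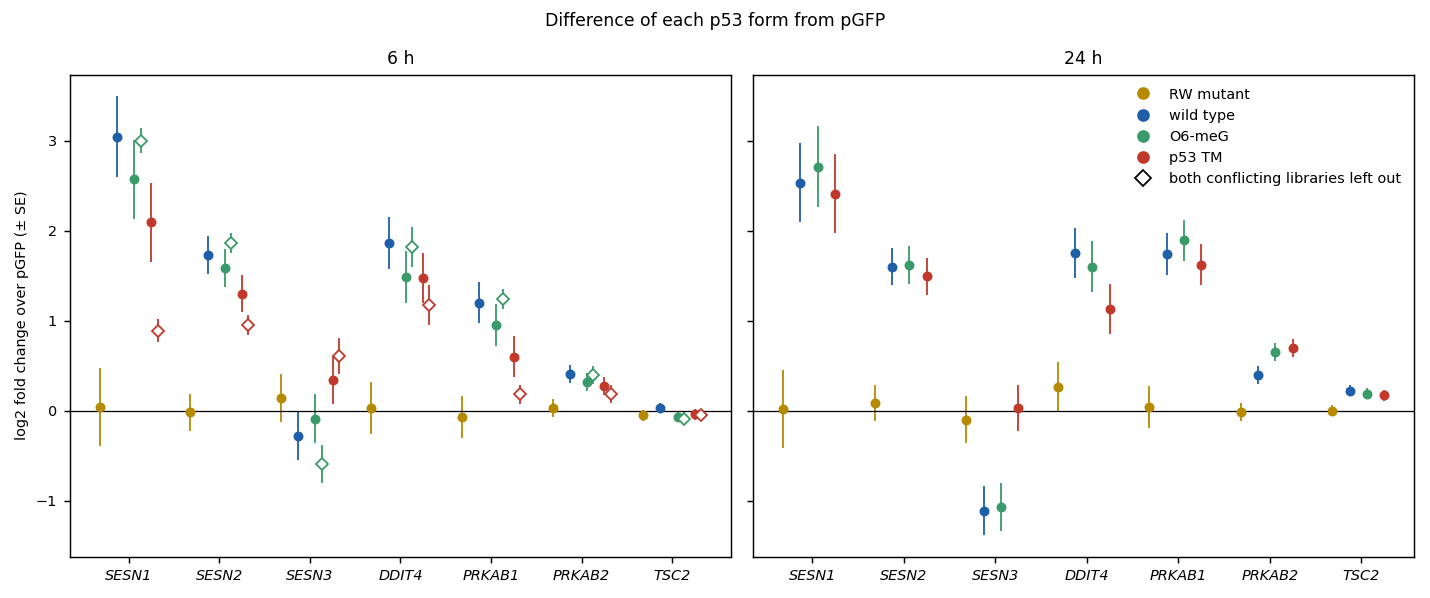
Log2 fold change over pGFP with its standard error for each member and p53 form at 6 h (left) and 24 h (right), with open diamonds for fits without the libraries with conflicting titles. SESN1 is highest and SESN3 is the only member below 0 with wild type p53 at 24 h, the RW points lie near 0, and the p53 TM point of SESN1 at 6 h drops from 2.09 to 0.89 when both libraries are left out.

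The p53 O6-meG vector in cells with active repair raised the members much as the wild type vector did. At 24 h all 7 members were called against pGFP, 6 higher and SESN3 lower, where 29.3% of all genes were called. SESN1 stood at 213, 191 and 160 CPM and SESN2 at 133, 104 and 105 CPM. SESN3 stood at 9.66, 9.51 and 7.79 CPM, below all pGFP libraries, with a log2 fold change of -1.07 ± 0.27 (adjusted P = 0.0032). TSC2 was again the smallest call, at 0.19 ± 0.06 (adjusted P = 0.014), and it was lost without wild type replicate 1 (adjusted P = 0.063), p53 O6-meG replicate 1 (0.094) or pGFP replicate 2 (0.11) at 24 h.

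No member was called between p53 O6-meG and wild type p53. At 24 h none was called by edgeR or by DESeq2's Wald test, and 0% of all genes were called by edgeR; PRKAB2 alone had an unadjusted P below 0.05, at 0.25 ± 0.10 (adjusted P = 1), its 3 p53 O6-meG libraries, at 50.5, 44.3 and 40.3 CPM, all above the wild type libraries. At 6 h none was called as labelled or with both libraries left out, and none had an unadjusted P below 0.05 in either case; 0.00479% of all genes were called as labelled. The interval for SESN1 at 6 h was -1.30 to 0.36 as labelled and -0.31 to 0.22 with both libraries left out.

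At 6 h, the p53 O6-meG libraries of SESN1 were at 230 and 193 CPM in replicates 1 and 3 and at 49 CPM in the library labelled replicate 2. Against pGFP, 3 members were called as labelled (SESN1, SESN2 and DDIT4), where 0.35% of all genes were. With both libraries left out 5 were called, PRKAB1 and PRKAB2 being added, where 4.85% of all genes were. The log2 fold change of SESN1 was 2.57 ± 0.44 as labelled and 3.00 ± 0.14 with both left out. As labelled, the SESN1 call was lost without any 1 of the pGFP replicates at 6 h (adjusted P = 0.064, 0.086 and 0.076 without replicates 1, 2 and 3) or without p53 O6-meG replicate 1 (0.084), and the DDIT4 call without any 1 of these or without p53 O6-meG replicate 3 (0.095).

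The p53 TM cultures asked how far these responses survive when part of the p53 transcripts carry the mutagenic error. At 6 h SESN1 was at 47.7 and 50.3 CPM in replicates 1 and 3 and at 240 CPM in the library labelled replicate 2. PRKAB1 was at 55.2 and 52.1 CPM, near the pGFP level, and at 108 CPM in the library labelled replicate 2. SESN2 was at 60.6 and 57.6 CPM and at 108 CPM in that library. In each of these genes 2 libraries lay close together and 1 stood near the wild type level. DDIT4 was at 26.4 and 15.7 CPM, further apart, and at 35.6 CPM in the library labelled replicate 2. PRKAB2 was at 34 and 31.4 CPM and at 38.9 CPM in that library. TSC2 was at 73.9, 79 and 80.1 CPM, overlapping pGFP.

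As labelled, only SESN2 and DDIT4 were called in p53 TM against pGFP at 6 h, with 0.0814% of all genes called. With both libraries left out, SESN1, SESN2 and DDIT4 were called, with 0.202% of all genes called. The log2 fold change of SESN1 was then 0.89 ± 0.13 (adjusted P = 0.001), that of SESN2 0.95 ± 0.11 (adjusted P = 2e-05) and that of DDIT4 1.17 ± 0.22 (adjusted P = 0.012). PRKAB1 was at 0.18 ± 0.11 and did not pass the test (adjusted P = 0.95). As labelled, SESN2 was lost without pGFP replicate 2 (adjusted P = 0.054) or 3 (0.057), and DDIT4 without any 1 of the pGFP replicates or p53 TM replicates 1 or 2 at 6 h (adjusted P between 0.05 and 0.34).

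Set against wild type p53 at 6 h, no member was called as labelled by edgeR or by DESeq2's Wald test, although 4 had an unadjusted P below 0.05 in edgeR and 0.0766% of all genes were called. With both libraries left out 5 members were called, where 10.9% of all genes were called. SESN1 was lower by 2.15 ± 0.14 on the log2 scale (0.225 times the wild type level, adjusted P = 2.7e-10), PRKAB1 was lower by 1.02 ± 0.12 (adjusted P = 9.7e-07), SESN2 by 0.78 ± 0.11 (adjusted P = 1.6e-05) and DDIT4 by 0.69 ± 0.22 (adjusted P = 0.042). SESN3 was higher, by 0.89 ± 0.20 (adjusted P = 0.0033), at 11.2 and 15.4 CPM in p53 TM replicates 1 and 3. Leaving out the library labelled p53 TM replicate 2 alone was enough for 4 of these calls: -2.15 for SESN1 (adjusted P = 2.2e-04), -0.78 for SESN2 (0.0078), 0.89 for SESN3 (0.028) and -1.02 for PRKAB1 (0.0016).

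The comparison of p53 TM with p53 O6-meG, which share the vector and differ in O6-bzG, called no member at 6 h as labelled, by edgeR or by DESeq2's Wald test; no member had an unadjusted P below 0.05 in edgeR, and 0% of all genes were called. With both libraries left out SESN1, SESN2 and PRKAB1 were lower and SESN3 higher in p53 TM, 4 members, where 4.1% of all genes were called. SESN1 was lower by 2.11 ± 0.15 (adjusted P = 1.5e-09) and SESN3 higher by 1.19 ± 0.23 (adjusted P = 0.0016). These groups then held 2 libraries each.

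The share of the wild type rise that p53 TM libraries reached was computed for each member as the distance of its CPM from the pGFP mean over that of the wild type mean. The SD of a share covers only the libraries of the group in question. It leaves out the spread of pGFP and wild type p53 and takes no account of replicate numbers. At 6 h the p53 TM libraries of SESN1 reached 11.1% and 12.4% in replicates 1 and 3 and 112% in the library labelled replicate 2. PRKAB1 reached 12.8%, 7.72% and 99.4% in replicates 1, 3 and 2. SESN2 kept more, at 42.3% and 38.2% in replicates 1 and 3 against 109% in replicate 2. DDIT4 gave 69.6% and 26% in replicates 1 and 3, a spread as wide as the differences among the members, and 107% in replicate 2. PRKAB2 gave 55.7% and 27.8% in replicates 1 and 3 and 107% in replicate 2. These shares were not tested against each other. The mean for SESN1 was 45% ± 57.6 (SD, n = 3) as labelled and 11.8% ± 1 (n = 2) with both libraries left out, and for SESN2 63.1% ± 39.7 and 40.3% ± 2.86.

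At 24 h, when no title is in conflict, the p53 TM libraries overlapped the wild type libraries for SESN1, SESN2 and PRKAB1 but lay below them within each replicate number. SESN1 was at 184, 149 and 125 CPM, SESN2 at 117, 96 and 100 CPM and PRKAB1 at 160, 124 and 117 CPM in replicates 1, 2 and 3, against 188, 173 and 140 CPM, 126, 102 and 108 CPM and 168, 138 and 127 CPM with wild type p53. None of the 3 genes was called, with or without the replicate number as a block at both times. Their shares of the wild type rise were 89.7% ± 21.5, 89.4% ± 14.4 and 89% ± 22.9 (SD, n = 3). These shares were not taken within replicate numbers, although the numbers paired the libraries at 24 h. The intervals of their log2 differences from wild type p53 ran from -0.96 to 0.70 for SESN1, from -0.51 to 0.29 for SESN2 and from -0.56 to 0.33 for PRKAB1. With both 6 h libraries left out of the shared fit, the interval for SESN1 narrowed to -0.36 to 0.11, and with the replicate block added as well it was -0.26 to -0.01 (adjusted P = 0.1).

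For DDIT4 and SESN3 the p53 TM libraries at 24 h did not overlap the wild type libraries, and of these genes SESN3 alone was called as labelled. DDIT4 was at 25.4, 27.1 and 26.3 CPM in p53 TM at 24 h, between the pGFP libraries and the wild type libraries without overlap. Its share of the wild type rise was 50.8% ± 2.88, an SD that leaves out the spread of pGFP from 7.35 to 16.4 CPM. The p53 O6-meG libraries, at 38.8, 35 and 35 CPM, were also all below the wild type libraries, with a share of 86.3% ± 7.71. Against wild type p53, DDIT4 in p53 TM was lower by 0.61 ± 0.27, which missed the threshold as labelled (adjusted P = 0.13 by edgeR). It passed with both 6 h libraries left out (-0.61 ± 0.19, adjusted P = 0.024). As labelled, it also passed when just wild type p53 and p53 TM at 24 h were fitted (adjusted P = 0.0078). SESN3 was at 20.5, 20 and 17.5 CPM in p53 TM, in the range of the pGFP libraries and above all wild type libraries. It was higher than with wild type p53 by 1.14 ± 0.27 (adjusted P = 0.0043), and its difference from pGFP was 0.03 ± 0.26.

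PRKAB2 lay above the wild type level. Its p53 TM libraries were at 55.8, 44 and 40.2 CPM at 24 h, all above the wild type libraries, and its share of the wild type rise was 195% ± 88.2. The log2 difference from wild type p53 was 0.30 ± 0.10 (adjusted P = 0.039), which was lost without p53 TM replicate 1 (0.15, adjusted P = 0.29), p53 TM replicate 2 (0.052) or wild type replicates 2 (0.081) or 3 (0.099) at 24 h, with DESeq2 size factors (0.054), with a stricter count filter (0.056) and when just wild type p53 and p53 TM at 24 h were fitted (0.16). The p53 O6-meG libraries without O6-bzG gave a like share of 178% ± 55.6. PRKAB2 and SESN3 were the 2 members called in p53 TM against wild type p53 at 24 h, where 18.5% of all genes were called.

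Against pGFP, 5 members were called in p53 TM at 24 h, all higher, where 9.2% of all genes were called: SESN1, SESN2, DDIT4, PRKAB1 and PRKAB2. The log2 fold change of SESN1 was 2.41 ± 0.44 (adjusted P = 9.4e-04) and that of DDIT4 1.13 ± 0.28 (adjusted P = 0.01), the latter lost without pGFP replicate 1 at 24 h (0.89, adjusted P = 0.077). TSC2, at 85, 81.6 and 82.1 CPM, lay above all pGFP libraries by 0.17 ± 0.06 and missed the threshold (adjusted P = 0.063). With the replicate number as a block at both times, TSC2 passed it (0.17 ± 0.05, adjusted P = 0.012 by edgeR). All comparisons with pGFP share the same control libraries.

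Against p53 O6-meG at 24 h only SESN3 was called, higher in p53 TM by 1.10 ± 0.27 (adjusted P = 0.016), where 6.5% of all genes were called. Each of its p53 TM libraries was above each p53 O6-meG library. The call was lost without p53 O6-meG replicate 2 (adjusted P = 0.051) or 3 (0.054) or p53 TM replicate 2 (0.062) at 24 h. With both 6 h libraries left out and the replicate number as a block, DDIT4 (-0.47 ± 0.15, adjusted P = 0.023), PRKAB1 (-0.27 ± 0.06, adjusted P = 0.002) and SESN1 (-0.31 ± 0.06, adjusted P = 6.4e-04) were also called, all lower in p53 TM. This combination was chosen after the data had been seen.

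**Figure D3:**
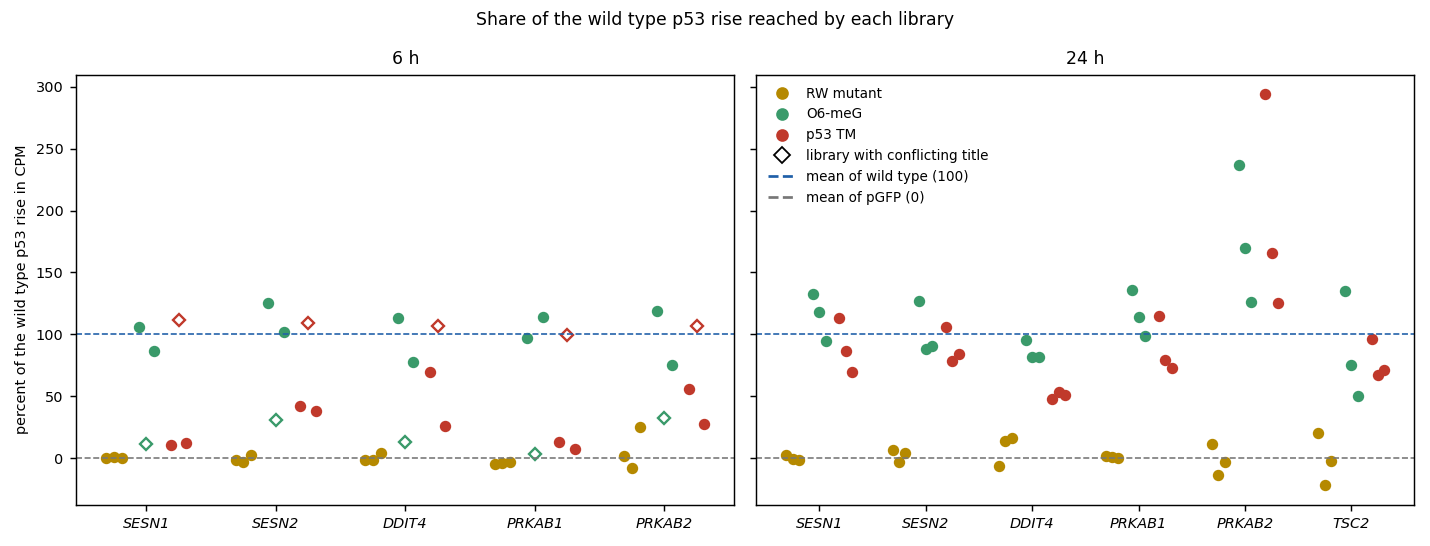
Share of the wild type rise in CPM reached by each RW mutant, O6-meG and p53 TM library, for the members called higher with wild type p53 at 6 h (left) and 24 h (right), with dashed lines at the pGFP mean (0) and the wild type mean (100). At 6 h p53 TM replicates 1 and 3 of SESN1 and PRKAB1 lie near 10, while at 24 h the p53 TM libraries of DDIT4 lie between 47.8 and 53.5 and those of PRKAB2 above 100.

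The change of the p53 TM effect over time was tested as the difference of p53 TM from wild type p53 at 24 h less that at 6 h. As labelled no member passed by edgeR or by DESeq2's Wald test; PRKAB2 alone had an unadjusted P below 0.05 (0.43 ± 0.14, adjusted P = 0.26), and 0.0671% of all genes were called. With both libraries left out, SESN1 (2.03 ± 0.18, adjusted P = 3e-07), PRKAB1 (0.90 ± 0.15, adjusted P = 0.0011) and SESN2 (0.67 ± 0.14, adjusted P = 0.011) passed, where 1.45% of all genes were called. DDIT4, at 0.08 ± 0.29 (adjusted P = 0.97), and SESN3, at 0.25 ± 0.27 (adjusted P = 0.85), did not. SESN1 was also called with only the library labelled p53 TM replicate 2 left out (2.03, adjusted P = 0.042).

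Across all 30 libraries, SESN1 and SESN2 varied together, with a Pearson correlation of log2 CPM of 0.98, and PRKAB1 followed SESN1 at 0.95. SESN3 ran against SESN1, at -0.43, and TSC2 followed it at 0.57. These values describe libraries that share groups and scaling. Of all other genes tested, BTG2, an antiproliferative p53 target, was most like SESN1 (0.996), followed by ENSG00000260912, a long noncoding RNA gene on chromosome 9, and POLH, the translesion polymerase eta (both 0.987). BTG2 stood at 2.48 ± 0.25 CPM in pGFP, 82.2 ± 8.07 CPM with wild type p53 and 57.4 ± 13.7 CPM in p53 TM at 24 h (SD, n = 3).

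The genes most like PRKAB1 were DRAM1, a p53-induced regulator of autophagy (0.989), GRHL3, an epidermal transcription factor (0.989), and ISCU, an iron-sulphur cluster scaffold (0.988). GRHL3 was near the floor in pGFP, at 0.0152 ± 0.0132 CPM at 24 h (SD, n = 3). The closest to SESN3 were SECISBP2L, a relative of the selenocysteine insertion factor (0.947), PIKFYVE, an endosomal lipid kinase (0.943), and MGAT4A, a Golgi glycosyltransferase (0.934). MGAT4A was at 9 ± 1.87 CPM in pGFP, 3.37 ± 0.36 CPM with wild type p53 and 7.84 ± 0.77 CPM in p53 TM at 24 h. It was chosen for its likeness to SESN3 in these same libraries, so the shared pattern is no separate observation.

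The rest of the pathway was taken as a list of genes upstream and downstream of mTOR. Of 72 other genes of mTOR signalling, 70 were tested: wild type p53 raised 8 and lowered 1 at 6 h (12.9%), and raised 12 and lowered 10 at 24 h (31.4%). These shares stand beside 8.75% and 34.9% of all genes, and the median log2 fold change of the list was 0.03 at 6 h and 0.01 at 24 h. The RW mutant changed none at either time, by edgeR. The kinase gene MTOR itself, named after its values were seen, was at 323, 297 and 308 CPM in pGFP and 258, 256 and 267 CPM with wild type p53 at 24 h, lower by 0.25 ± 0.05 (adjusted P = 1.6e-04). In p53 TM at 24 h MTOR was at 332, 316 and 320 CPM, above all wild type libraries (0.31 ± 0.05, adjusted P = 1e-04).

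At 6 h the largest rises in that list were those of RHEBL1, a relative of RHEB (1.36 ± 0.21, adjusted P = 2.9e-04), ULK1, the autophagy kinase that mTOR restrains (0.80 ± 0.16, adjusted P = 0.0021), and STK11, the LKB1 kinase that activates AMPK (0.63 ± 0.15, adjusted P = 0.0065). RHEBL1 was at 12.3, 14.7 and 14.8 CPM with wild type p53 at 6 h but at 6.72, 5.46 and 5.51 CPM at 24 h, overlapping pGFP at 5.57, 4.93 and 5.73 CPM. WDR24, a subunit of the GATOR2 complex that sestrins bind, was the only gene that fell at 6 h (-0.30 ± 0.09, adjusted P = 0.047).

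At 24 h the largest rises were those of WDR59, another GATOR2 subunit (1.17 ± 0.13, adjusted P = 1.4e-07), STK11 (1.09 ± 0.15, adjusted P = 2.9e-06) and LAMTOR2, a subunit of the Ragulator scaffold (1.09 ± 0.13, adjusted P = 3.7e-07). The largest falls were those of WDR24 (-0.67 ± 0.10, adjusted P = 4.3e-06), the autophagy kinase ULK2 (-0.55 ± 0.08, adjusted P = 3.8e-06) and PRKAA2, a catalytic subunit of AMPK (-0.45 ± 0.10, adjusted P = 6.5e-04). Within GATOR2, WDR59 and WDR24 thus moved in opposite directions: WDR59 went from 58.9, 62.6 and 63.5 CPM to 160, 136 and 120 CPM, and WDR24 from 27.9, 28.6 and 29 CPM to 15.6, 17.8 and 20.2 CPM. In p53 TM at 24 h both lay between pGFP and wild type p53, WDR59 at 115, 92.3 and 88.9 CPM and WDR24 at 23.4, 22.3 and 22.9 CPM.

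**Figure D4:**
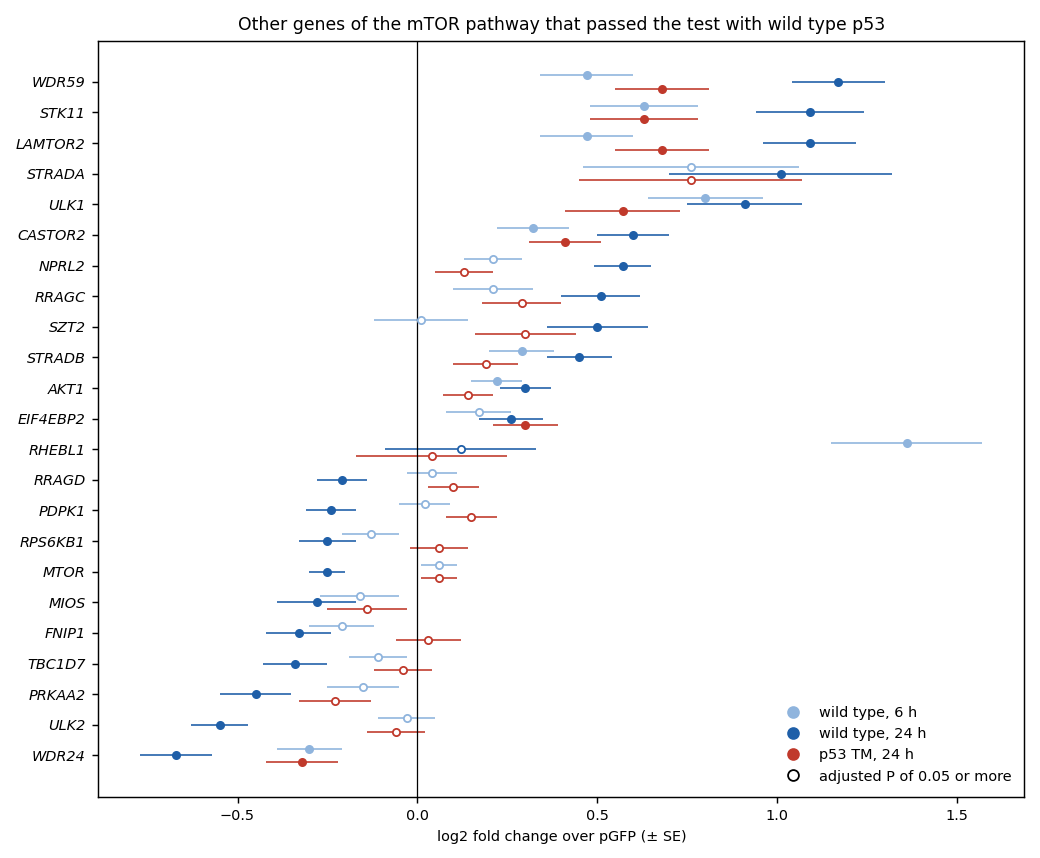
Log2 fold change over pGFP with its standard error for the other genes of the mTOR pathway list that passed the test with wild type p53 at 6 h or 24 h, with open circles where a comparison did not pass. WDR59, STK11 and LAMTOR2 lie highest and WDR24 lowest with wild type p53 at 24 h, and RHEBL1 is high at 6 h and near 0 at 24 h.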

How the data were processed

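RNA-seq of sorted H1299 cells gave 30 libraries. The authors aligned reads to hg38 with STAR 2.5.3a and counted them with featureCounts (Subread 1.5.2) on GENCODE v27, and the deposited values are raw counts per gene. A deposited normalized table was not used, because several of its columns share a header. Identifiers of 38904 of 39359 rows matched GENCODE v44, and sequences came from RefSeq (hg38), with all 7 members matched.

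Genes passing edgeR's filterByExpr (20875) were scaled by TMM and fitted with group means over all libraries in edgeR 4.0.16 (glmQLFit, glmQLFTest; R 4.3.3). P-values are two-sided and called at an adjusted P below 0.05. Fold changes are given ± SE and intervals span 2 SE on each side. The SE was derived from the test, as the absolute log2 fold change over the square root of its F statistic. It is thus approximate, above all for differences near 0. Replicate numbers paired the libraries at 24 h, where 30 of 30 same-numbered pairs of groups had deviations correlated above 0.1 (median 0.43). At 6 h, with part of the groups compared, 5 of 9 pairs did (median 0.13, beside -0.05 for different numbers). Pairing at 6 h was thus less clear. The main fit holds no block, and the replicate block among the alternatives was fitted at both times. Same-group libraries differed by more than counting noise (chi-square per degree of freedom from 5.51 to 41.9). The fit was tested on simulated counts, with 200 genes changed by 1 log2 unit in wild type p53 at 24 h. It recovered 118 of them (59%) and called 5 unchanged genes, so changes of that size can go uncalled. The changed genes were drawn from all genes tested, with the spread of the fit as labelled and unpaired libraries. That share therefore does not describe the members. The members, the pathway list and the rule for named genes (the 7 members, the 3 largest called rises and falls of the list at each time, the 3 genes most correlated with SESN1, SESN3 and PRKAB1, and CDKN1A as a check of the libraries) were chosen with earlier results of these data known. MTOR and the overlapping genes PKD1 and LNCRNA-IUR are named outside that rule. Alternatives were DESeq2 1.42.0 (Wald test, size factors), other count filters, fits of only the groups compared, a replicate block, both placements of the libraries with conflicting titles, and leaving out each library. A check of the vectors is not reported here.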

Additional observations from a re-analysis of the deposited data

How the results depend on the processing

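Counts of called members moved most with both libraries of conflicting title. With them exchanged, 5 members were called in p53 O6-meG against pGFP at 6 h, 5 in p53 TM against wild type p53 at 6 h, 5 in p53 TM against p53 O6-meG at 6 h, 2 in pGFP over time, 2 in the change of the wild type effect and 4 in the change of the p53 TM effect; left out, the counts were 5, 5, 4, 2, 1 and 3. Exchanged with a replicate block added after the data were seen they were 6, 6, 6, 3, 4 and 4, with 4 in p53 TM against pGFP at 6 h and 4 against p53 O6-meG at 24 h; left out with that block they were 6, 6, 5, 3, 3 and 4, with 4 and 4. The replicate block alone, fitted at 6 h as well as at 24 h, gave 5 in p53 O6-meG against pGFP at 6 h. It also gave 2 in pGFP over time (TSC2 added) and 1 in the change of the p53 TM effect (PRKAB2). Besides those and TSC2 in p53 TM at 24 h it changed no other call. Fits of only the groups compared gave 0 in p53 O6-meG and 0 in p53 TM against pGFP at 6 h, 2 in p53 TM against p53 O6-meG at 24 h (DDIT4 added), 2 in pGFP over time (SESN2 added) and 2 in the change of the wild type effect (PRKAB1 and SESN1), and in p53 TM against wild type p53 at 24 h they called DDIT4 in place of PRKAB2 at an unmoved count of 2; they and the lowest count filter ended the TSC2 calls against pGFP at 24 h (adjusted P from 0.074 to 0.41). DESeq2 size factors and a minimum of 10 counts each left 1 call in p53 TM against wild type p53 at 24 h, and size factors put the TSC2 share in p53 TM at 59.8%. Leaving out 1 library at a time gave 1 to 5 calls in p53 O6-meG against pGFP at 6 h, 0 to 3 in p53 TM against pGFP at 6 h, 0 to 4 and 1 to 3 in p53 TM against wild type p53 at 6 h and 24 h, 0 to 1 in p53 TM against p53 O6-meG at each time and in the change of the p53 TM effect, and a DDIT4 share of 46.6% to 54.5% in p53 TM at 24 h. In none of these alternatives did a called direction reverse. The cause of these shifts was not tested. SESN3 and DDIT4 had the lowest counts of the members (from 196 and 276 reads), and whether this limits their precision was not tested.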

Other observations

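At 24 h the libraries numbered 1 were the highest of their group for SESN1, SESN2, PRKAB1 and PRKAB2. This held in every group, pGFP and the RW mutant included. Within each number SESN3 in p53 TM exceeded wild type p53, at 20.5 against 9.53 CPM, 20 against 8.92 CPM and 17.5 against 7.93 CPM.

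Of the 70 other pathway genes tested, 10 were higher and 5 lower in p53 TM than with wild type p53 at 24 h (21.4%, beside 18.5% of all genes tested). The genes lower in p53 TM included STK11 (-0.46 ± 0.15, adjusted P = 0.032) and LAMTOR2 (-0.41 ± 0.13, adjusted P = 0.026) in edgeR's test, which had risen with wild type p53, and those higher included ULK2 (0.49 ± 0.08, adjusted P = 1.3e-04), which had fallen.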
